A study of Drosophila melanogaster with 6 samples.

Results

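The aminoacyl-tRNA synthetases are the enzymes that join each amino acid to its transfer RNA (tRNA). Their genes were picked out by a rule on the name that uses no measured value: every row of the expression table whose symbol is an amino acid abbreviation followed by RS, with a final m for the mitochondrial enzyme. Members and lists of other genes were chosen with earlier results of these data known. The rule found 33 genes among 14138, of which 18 encode cytosolic enzymes and 15 mitochondrial ones. All 33 passed the filter on low values, 5 CPM or more in 3 or more of the 6 libraries, where CPM is a gene's reads per 1000000 reads of the listed genes. The 33 symbols cover 20 amino acids, but not the subunits of the cytosolic phenylalanine enzyme, whose symbols alpha-PheRS and beta-PheRS have another form and which are described as companions.

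The RNA came from sorted olfactory projection neurons of the fly Drosophila melanogaster, which carry odour signals from the antennal lobe to higher centres of the fly brain. The adult group held 3 libraries from flies of 5 days, and the development group held 3 libraries from pupae at 36 h after puparium formation (APF), when the neurons are still wiring. All flies were untreated, and all libraries came from about 2000 cells sorted by a GFP marker, amplified as full-length cDNA by SMART-seq2. The driver of the marker, the sex of the flies and any further genotype are not stated in the labels. Separate animals or sorts for each library are not stated either, so p-values reflect only how far these libraries differ, which may be technical.

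Recovered reads ranged from 18602612 to 42217764 per library, and a synthetase gene had between 142 and 9281 of them in each library. Replicates of a group were further apart than counting noise, since chi-square divided by its degrees of freedom was 20.6 to 96.1, the highest being between development replicates 1 and 2. Across all 6814 genes tested the median log2 fold change, adult minus development, was -0.15, and it was -0.0073 with median of ratios scaling, so fold changes are to be read against that shift. In these pooled libraries, fewer cells of a type and less RNA per cell cannot be told apart.

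Protein synthesis draws on charged tRNAs in both the cytosol and the mitochondria, and most animal synthetases for the mitochondria are nuclear genes separate from those for the cytosol. The cytosolic enzymes serve all proteins of the nuclear genome, while the mitochondrial enzymes serve only the few respiratory chain proteins that the mitochondrial genome encodes. Synthetases fall into 2 unrelated structural classes, I and II, that differ in the fold of the catalytic domain. In neurons both kinds are known for disease: in humans, variants in several cytosolic synthetase genes cause peripheral neuropathy, and variants in several mitochondrial ones cause brain disease.

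Most cytosolic synthetase genes were lower in adult than in development, while mitochondrial ones that passed the test were mostly higher. Of the 18 cytosolic genes, 14 were lower in adult, 0 were higher and 4 did not pass the test, with a median log2 fold change of -0.75 (limma, calls at adjusted p under 0.05, adjusted over all genes tested). The count of 0 higher was also 0 at an unadjusted p under 0.05 and with limma voom on recovered reads, and it was 1, MetRS, with median of ratios scaling, quantile normalization or library weights. Of the 15 mitochondrial genes, 7 were higher in adult, 1 was lower and 7 did not pass, with a median of 0.31. With median of ratios scaling or quantile normalization 11 cytosolic genes were lower, and the mitochondrial counts stayed at 7 higher and 1 lower. Of all 6814 genes tested, 2180 were lower and 2231 higher with median of ratios scaling, and 2265 and 2115 with quantile normalization. Without such scaling 65.1% of all genes tested changed, 37.9% lower and 27.2% higher in adult. The cytosolic share that fell was thus 77.8% against 37.9%, and the mitochondrial share that rose was 46.7% against 27.2%. The 3 adult libraries lay wholly below the 3 development libraries for 14 cytosolic genes and 1 mitochondrial gene, against 40.2% of all genes tested. They lay wholly above for 0 cytosolic and 7 mitochondrial genes, against 28.8%. With the alpha-PheRS and beta-PheRS subunits counted, 16 of 20 cytosolic genes fell.

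**Figure D1:**
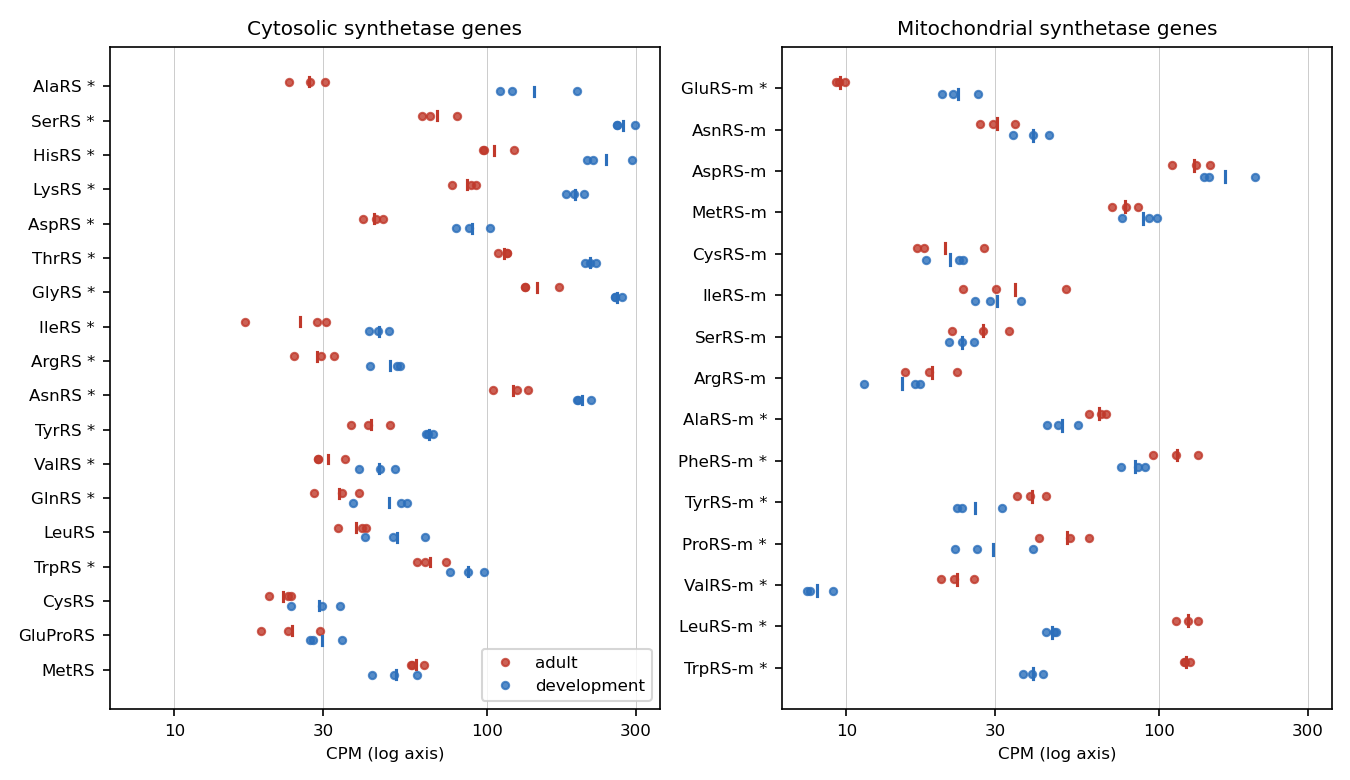
CPM of the 18 cytosolic (left) and 15 mitochondrial (right) synthetase genes on a log axis, with 1 point per library, adult in red above development in blue, and a bar at each mean. Genes are ordered from the most negative to the most positive log2 fold change, and an asterisk marks an adjusted p under 0.05 (limma); cytosolic points in adult mostly lie left of development, and 7 mitochondrial genes lie right of it.

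Among cytosolic genes the largest falls were in class II. AlaRS, which charges the alanine tRNA, had 30.3, 23.4 and 27.2 CPM in adult replicates 1 to 3 and 195, 110.1 and 120.4 CPM in development replicates 1 to 3. Its groups lay far apart, although development replicate 1 stood well above the other two. The log2 fold change was -2.31 ± 0.20 (SE; limma, adjusted p = 2.23e-07), and it was -2.06 without that library. SerRS, the serine enzyme, had 66.0, 62.0 and 80.3 CPM in adult and 298, 261 and 260.3 CPM in development, and -1.97 ± 0.13 (SE; limma, adjusted p = 1.53e-08) as log2 fold change. SerRS had the highest mean CPM of the members in development, and its groups lay far apart. HisRS, for histidine, had 122, 97.6 and 98.1 CPM in adult and 292, 210.1 and 218 CPM in development (log2 fold change -1.17 ± 0.14, SE; limma, adjusted p = 7.87e-06), and development replicate 1 was again the highest. LysRS, for lysine, had 92.1, 89.2 and 77.5 CPM in adult and 191, 179 and 205 CPM in development (log2 fold change -1.15 ± 0.12, SE; limma, adjusted p = 1.46e-06). In HisRS and LysRS, too, every adult library was below every development library.

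The other 4 cytosolic class II genes fell as well, so that 8 of 8 passed. AspRS, for aspartate, had 40.2, 46.5 and 44.3 CPM in adult and 79.5, 87.7 and 103 CPM in development (log2 fold change -1.02 ± 0.14, SE; limma, adjusted p = 2.84e-05). Its level is uncertain, since 69.5% of its exonic bases lie on the strand opposite to exons of other genes and whether reads were counted by strand is not stated. ThrRS, for threonine, had 109, 116 and 116 CPM in adult and 223, 206 and 215 CPM in development. GlyRS, for glycine and among the genes known from human neuropathy, had 133, 133 and 169.9 CPM in adult and 256, 257 and 272 CPM in development. AsnRS, for asparagine, had 136, 125 and 105 CPM in adult and 216, 195 and 195 CPM in development. In none of these 4 genes did the groups overlap, and the log2 fold changes of ThrRS, GlyRS and AsnRS were -0.91, -0.85 and -0.73, with adjusted p of at most 0.000125 (limma).

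Of the cytosolic class I genes 6 of 9 fell, with a median log2 fold change of -0.51 beside -1.08 in class II. With median of ratios scaling or quantile normalization 3 of the 9 class I genes were lower and 1 was higher, while all 8 class II genes were lower. Of all 6814 genes tested, 2180 were lower with median of ratios scaling and 2265 with quantile normalization, a share near that of class I. A test of the difference between the classes was not made. IleRS, for isoleucine, had 16.8, 28.6 and 30.5 CPM in adult and 48.8, 44.8 and 42.0 CPM in development (log2 fold change -0.85 ± 0.21, SE; limma, adjusted p = 0.00284), and adult replicate 1 was the lowest. ArgRS, for arginine, had 29.5, 24.1 and 32.3 CPM in adult and 42.4, 51.8 and 52.9 CPM in development (log2 fold change -0.76 ± 0.17, SE; limma, adjusted p = 0.0014). TyrRS, for tyrosine, had 41.7, 49.2 and 36.7 CPM in adult and 65.0, 64.1 and 67.2 CPM in development (log2 fold change -0.62 ± 0.15, SE; limma, adjusted p = 0.0023). In these 3 genes every adult library was below every development library.

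ValRS, GlnRS and TrpRS, which charge the valine, glutamine and tryptophan tRNAs, passed by smaller margins. ValRS had 28.9, 35.1 and 28.8 CPM in adult and 50.9, 39.0 and 45.5 CPM in development (log2 fold change -0.53 ± 0.17, SE; limma, adjusted p = 0.0126), and its adjusted p was 0.0584 with median of ratios scaling and 0.0642 with quantile normalization (limma). Its groups did not overlap, nor did those of TrpRS. TrpRS had 60.0, 74.2 and 63.7 CPM in adult and 76.4, 87.2 and 97.7 CPM in development (log2 fold change -0.39 ± 0.14, SE; limma, adjusted p = 0.0251). Its call ended without adult replicate 1 or 3 and without development replicate 2 or 3, with adjusted p of 0.087, 0.0653, 0.0685 and 0.115 (limma). It also ended with median of ratios scaling, quantile normalization and no filter, with adjusted p of 0.143, 0.112 and 0.0523 (limma). GlnRS had 34.4, 39.0 and 28.0 CPM in adult and 55.7, 37.3 and 53.1 CPM in development (log2 fold change -0.51 ± 0.19, SE; limma, adjusted p = 0.0305), and its groups overlapped. Its call ended without adult replicate 1 or 3 and without development replicate 1 or 3, with adjusted p of 0.0513, 0.119, 0.104 and 0.11 (limma). The same scalings, no filter and library weights gave GlnRS adjusted p of 0.115, 0.131, 0.1 and 0.126 (limma).

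The 4 cytosolic genes that did not pass were LeuRS, CysRS, GluProRS and MetRS. LeuRS, for leucine, had 39.8, 33.3 and 41.1 CPM in adult and 63.5, 49.97 and 40.9 CPM in development (log2 fold change -0.41 ± 0.18, SE; limma, adjusted p = 0.0595), with overlapping groups. Without development replicate 3, with library weights and with limma voom it passed as lower, with adjusted p of 0.0215, 0.0475 and 0.0431 (limma). CysRS, for cysteine, had 20.1, 23.6 and 23.1 CPM in adult and 34.0, 29.7 and 23.7 CPM in development (log2 fold change -0.36 ± 0.19, SE; limma, adjusted p = 0.105), so its groups did not overlap although the test was not passed. GluProRS, a single protein with a class I enzyme for glutamate and a class II enzyme for proline, had 23.1, 29.2 and 19.0 CPM in adult and 34.3, 27.1 and 27.7 CPM in development (log2 fold change -0.32 ± 0.20, SE; limma, adjusted p = 0.162), with overlapping groups. MetRS, which charges methionine tRNAs, was the one cytosolic member with a positive log2 fold change. It had 57.5, 57.1 and 63.2 CPM in adult and 60.0, 43.0 and 50.5 CPM in development (log2 fold change 0.22 ± 0.15, SE; limma, adjusted p = 0.224), and the groups overlapped. It passed as higher with median of ratios scaling, quantile normalization and library weights, with adjusted p of 0.0481, 0.0487 and 0.0388 (limma).

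The subunits of the cytosolic phenylalanine enzyme fell with the other class II genes. alpha-PheRS had 90.1, 69.5 and 79.9 CPM in adult and 156, 151 and 166 CPM in development (log2 fold change -0.98 ± 0.13, SE; limma, adjusted p = 1.28e-05). beta-PheRS had 15.5, 21.4 and 18.9 CPM in adult and 46.3, 50.5 and 40.4 CPM in development (log2 fold change -1.26 ± 0.18, SE; limma, adjusted p = 3.33e-05). The groups did not overlap for either subunit.

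In mammals 8 of the cytosolic synthetases, for arginine, aspartate, glutamine, glutamate and proline, isoleucine, leucine, lysine and methionine, are held in a multisynthetase complex by scaffold proteins encoded by the AIMP genes. Of the 8 fly genes 5 fell, with a median log2 fold change of -0.63, beside 37.9% lower of all genes tested. Of the 10 other cytosolic members 9 fell, with a median of -0.79. With median of ratios scaling or quantile normalization 4 of the 8 were lower and 1 was higher, and 7 of the 10 others were lower. The 8 genes are mostly class I and the 10 others mostly class II, and the difference was not tested. Of the scaffold genes, AIMP2 had 38.4, 44.0 and 30.8 CPM in adult and 83.3, 88.2 and 85.3 CPM in development (log2 fold change -1.17 ± 0.15, SE; limma, adjusted p = 1.41e-05). AIMP1 had 35.6, 31.4 and 34.6 CPM in adult and 48.5, 52.7 and 53.4 CPM in development (log2 fold change -0.59 ± 0.15, SE; limma, adjusted p = 0.0029). Both had groups that did not overlap. AIMP3 had 82.9, 89.4 and 92.8 CPM in adult and 88.8, 101 and 111 CPM in development, with overlapping groups, and did not pass (limma, adjusted p = 0.241).

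Among mitochondrial genes the largest rises were in class I. TrpRS-m, the mitochondrial tryptophan enzyme, had 121, 120.2 and 126 CPM in adult and 42.7, 36.8 and 39.3 CPM in development (log2 fold change 1.61 ± 0.13, SE; limma, adjusted p = 1.15e-07). LeuRS-m had 124, 114 and 134 CPM in adult and 46.9, 46.2 and 43.6 CPM in development (log2 fold change 1.42 ± 0.13, SE; limma, adjusted p = 3.53e-07). ValRS-m had 25.6, 22.1 and 20.02 CPM in adult and 9.09, 7.47 and 7.63 CPM in development (log2 fold change 1.38 ± 0.21, SE; limma, adjusted p = 5.62e-05). In each of these genes the lowest adult library was more than 2-fold above the highest development library. ValRS-m was also the least abundant member in development.

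A further 4 mitochondrial genes rose by less. ProRS-m, for proline, had 51.9, 59.7 and 41.4 CPM in adult and 26.3, 22.3 and 39.5 CPM in development (log2 fold change 0.80 ± 0.21, SE; limma, adjusted p = 0.00455), where development replicate 3 came close to the lowest adult library. TyrRS-m had 43.7, 35.3 and 38.7 CPM in adult and 23.5, 31.4 and 22.7 CPM in development (log2 fold change 0.59 ± 0.18, SE; limma, adjusted p = 0.0104). PheRS-m, a single-chain phenylalanine enzyme, had 114, 95.5 and 134 CPM in adult and 75.6, 85.7 and 90.6 CPM in development (log2 fold change 0.43 ± 0.14, SE; limma, adjusted p = 0.0165), and its call ended without adult replicate 3 and with no filter, with adjusted p of 0.0886 and 0.0557 (limma). In all 3 the groups did not overlap. AlaRS-m had 67.6, 65.3 and 59.9 CPM in adult and 55.1, 47.7 and 43.9 CPM in development (log2 fold change 0.39 ± 0.14, SE; limma, adjusted p = 0.0277). Its groups lay apart too, but its call ended without adult replicate 1 or 2 and without development replicate 2 or 3, with adjusted p of 0.079, 0.0699, 0.0806 and 0.109 (limma).

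GluRS-m, the mitochondrial glutamate enzyme, was the 1 mitochondrial gene that fell. It had 9.92, 9.25 and 9.44 CPM in adult and 20.2, 26.4 and 21.9 CPM in development (log2 fold change -1.17 ± 0.20, SE; limma, adjusted p = 0.000176), and the groups did not overlap. GluRS-m lies at 3L, 16415292 to 16417177, and TyrRS at 3L, 16417349 to 16419302, both on the minus strand, with 171 bases between them (BDGP6.54, Ensembl release 115). No other pair of members or companions lay within 5000 bases of each other, and both of these neighbours fell. Of the exonic bases of GluRS-m, 5.59% lie opposite Serinc.

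In human mitochondria glutamine tRNA is charged first with glutamate, by the mitochondrial glutamate enzyme, and an amidotransferase of subunits named GatA, GatB and GatC then turns the glutamate into glutamine. No mitochondrial glutamine gene was among the members. GatA had 56.2, 43.1 and 45.6 CPM in adult and 23.0, 22.0 and 22.2 CPM in development (log2 fold change 1.07 ± 0.16, SE; limma, adjusted p = 6.80e-05), with groups wholly apart. GatB had 62.8, 62.5 and 73.6 CPM in adult and 59.1, 65.6 and 66.0 CPM in development, with overlapping groups (limma, adjusted p = 0.725). GluRS-m and GatA thus moved in opposite directions. GatC was not matched to a row.

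The other 7 mitochondrial genes did not pass, and their groups overlapped. AspRS-m, the most abundant of them, had 146, 132 and 110.2 CPM in adult and 203, 145 and 139 CPM in development (log2 fold change -0.32 ± 0.15, SE; limma, adjusted p = 0.0879), and without development replicate 3 it passed as lower (limma, adjusted p = 0.0496). AsnRS-m had 26.7, 34.8 and 29.5 CPM in adult and 34.2, 39.6 and 44.5 CPM in development (log2 fold change -0.37 ± 0.17, SE; limma, adjusted p = 0.0745), and it passed as lower without adult replicate 2 or development replicate 1, with adjusted p of 0.0474 and 0.0383 (limma). So 2 mitochondrial genes, not 1, were lower when any of these 3 libraries was left out. MetRS-m had 85.6, 78.4 and 70.6 CPM in adult and 93.2, 76.1 and 98.7 CPM in development, a log2 fold change of -0.19. IleRS-m had 50.4, 30.1 and 23.7 CPM in adult and 25.8, 36.2 and 28.9 CPM in development. Adult replicate 1 was its highest library, and the log2 fold change of 0.13 became -0.16 without that library. CysRS-m had 27.5, 16.8 and 17.8 CPM in adult and 22.9, 23.7 and 18.0 CPM in development. SerRS-m had 33.2, 27.3 and 21.7 CPM in adult and 25.5, 23.4 and 21.3 CPM in development. ArgRS-m had 18.4, 15.4 and 22.6 CPM in adult and 11.4, 16.6 and 17.3 CPM in development. CysRS-m, SerRS-m and ArgRS-m had log2 fold changes of -0.08, 0.20 and 0.31, and that of CysRS-m was 0.07 with median of ratios scaling and 0.06 with quantile normalization. Slimp, a fly paralogue of the mitochondrial serine enzyme that does not charge tRNA, had 17.3, 18.5 and 25.3 CPM in adult and 21.7, 36.0 and 36.3 CPM in development (log2 fold change -0.58 ± 0.23, SE; limma, adjusted p = 0.0393), with overlapping groups. The call of Slimp ended without adult replicate 1 or 2 and without development replicate 2 or 3, with adjusted p of 0.117, 0.0952, 0.152 and 0.153 (limma). It also ended with median of ratios scaling, quantile normalization and no filter, with adjusted p of 0.112, 0.102 and 0.139 (limma).

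The summed CPM of the 18 cytosolic genes was 1079.7, 1086 and 1085 CPM in adult and 2282, 1981 and 2089.9 CPM in development, and the means were 1083 ± 3.21 and 2118 ± 153 CPM (SD, n = 3 each). The adult libraries had nearly the same sum although single genes varied between them. The summed CPM of the 15 mitochondrial genes was 946, 855 and 859 CPM in adult and 716, 665 and 677 CPM in development, with means of 887 ± 51.1 and 686 ± 26.6 CPM (SD, n = 3 each). Neither sum overlapped between the groups. The ratio of the cytosolic to the mitochondrial sum was 1.22 ± 0.072 in adult and 3.09 ± 0.104 in development (SD, n = 3 each). Mitochondrial genes made up 45.0% ± 1.48 of the summed CPM of all members in adult and 24.5% ± 0.626 in development (SD, n = 3 each). Longer transcripts give more reads, so this ratio compares read shares and not molecules. PheRS-m is in the mitochondrial sum, but alpha-PheRS and beta-PheRS are in neither sum. Their means were 79.8 and 18.6 CPM in adult and 157 and 45.7 CPM in development. ThrRS, LysRS, HisRS and GlyRS, each annotated with 2 start codons and without a separate mitochondrial gene, count wholly as cytosolic.

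**Figure D2:**
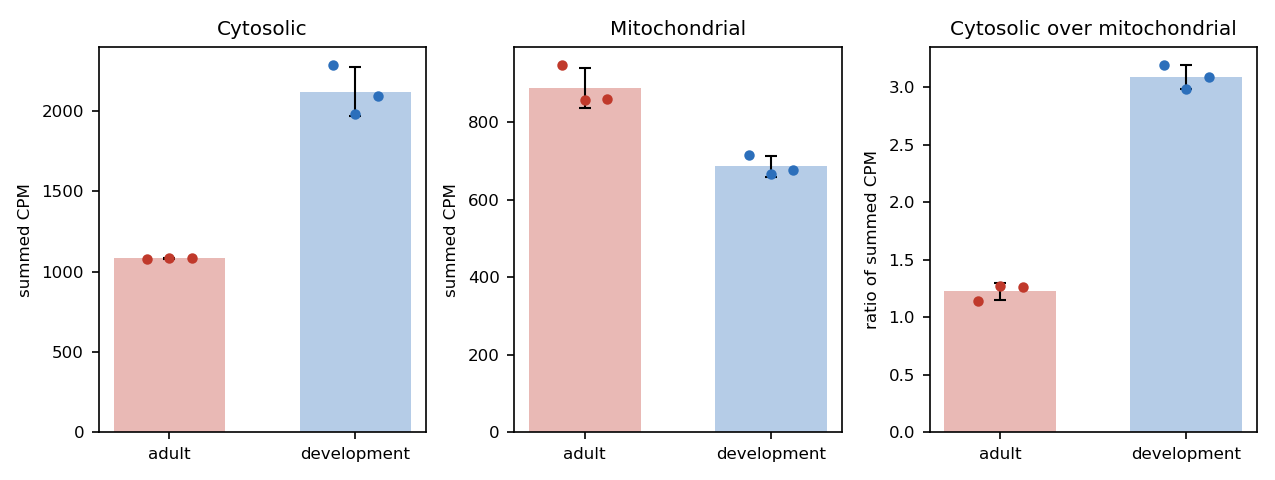
Summed CPM of cytosolic and of mitochondrial synthetase genes, and the ratio of these sums, in adult and development; bars are means, error bars SD and points the 3 libraries of each group. The cytosolic sum was 1083 CPM in adult against 2118 in development, the mitochondrial sum 887 against 686.

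For 12 amino acids both a cytosolic and a mitochondrial gene were measured, so the genes of a pair could be compared within each library. Gene length cancels only when the resulting values are compared between the stages. The difference of log2(CPM + 1) between the cytosolic and the mitochondrial gene was lower in adult for 11 of 12 amino acids, and for 7 of them the 3 adult libraries lay wholly below the 3 development libraries. The median difference, adult minus development, was -1.14 log2 units. The exact two-sided permutation test cannot give less than p = 0.1 with 3 against 3 libraries. After Benjamini-Hochberg adjustment over the 12 pairs the lowest p of that test was 0.15. No pair could pass 0.05 whatever its values, so the test cannot decide on single pairs. How often other pairs of genes lie wholly apart was not counted.

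The alanine pair had the largest difference, -2.71 ± 0.21, followed by the serine pair at -2.17 ± 0.27 and the tryptophan pair at -2.0 ± 0.18 log2 units (adult minus development, SE, n = 3 each). For alanine and serine most of it came from the cytosolic gene, with log2 fold changes of -2.31 for AlaRS and -1.97 for SerRS beside 0.39 for AlaRS-m and 0.20 for SerRS-m. For tryptophan, valine and leucine most came from the mitochondrial gene, as TrpRS-m, ValRS-m and LeuRS-m had log2 fold changes of 1.61, 1.38 and 1.42 beside -0.39, -0.53 and -0.41 for TrpRS, ValRS and LeuRS. In 4 pairs, those of alanine, tryptophan, tyrosine and valine, the cytosolic gene fell and the mitochondrial gene rose, each past the test. This number was 2 with median of ratios scaling or quantile normalization, the alanine and tyrosine pairs, and 2 without adult replicate 1 or without development replicate 2, the valine and tyrosine pairs. It was 2 to 5 over all 17 alternative fits. In 0 pairs did both genes fall past the test, but 1 pair did so in 5 of these fits. It was the aspartate pair with the replicate number as a block or without development replicate 3, and the asparagine pair with library weights, without adult replicate 2 or without development replicate 1. The methionine pair went the other way, with a difference of 0.40 ± 0.15 and adult libraries wholly above development.

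**Figure D3:**
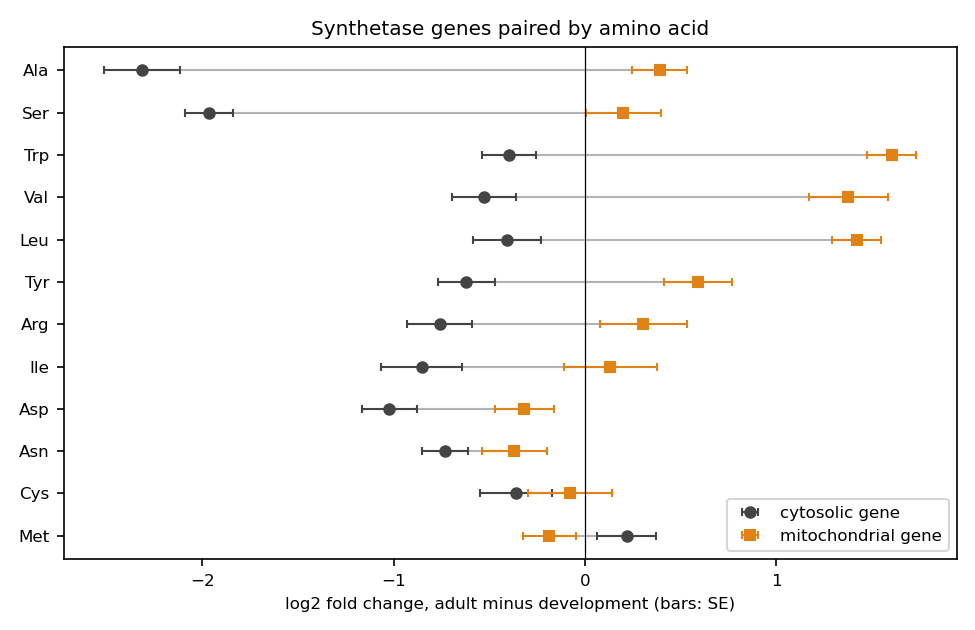
Log2 fold change, adult minus development, of the cytosolic gene (circle) and the mitochondrial gene (square) for each of 12 amino acids, with SE bars from limma. The mitochondrial gene lies to the right of the cytosolic gene in 11 of 12 amino acids, and methionine is the exception.

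Levels of different genes were compared as CPM per kilobase of annotated exon. On that scale the highest members in adult were PheRS-m at 75.0 ± 12.6, GlyRS at 57.1 ± 8.41 and AsnRS at 51.3 ± 6.57 CPM per kb (SD, n = 3). The next ones, TrpRS-m and LeuRS-m, had 49.4 ± 1.21 and 41.0 ± 3.30 CPM per kb, and SD ranges overlapped between neighbours in this order except between TrpRS-m and LeuRS-m. In development the order was SerRS at 143 ± 11.3, GlyRS at 103 ± 3.35 and AsnRS at 85.1 ± 4.98 CPM per kb, and AsnRS, LysRS and HisRS, at 84.7 ± 5.75 for LysRS and 84.0 ± 15.8 for HisRS, did not differ beyond their spread. SerRS ranked 10 among the 33 in adult and 1 in development, AlaRS ranked 28 in adult and 9 in development, and TrpRS-m ranked 4 in adult and 19 in development. The lowest members were GluProRS at 4.36 ± 0.942 CPM per kb in adult and ValRS-m at 2.48 ± 0.274 in development.

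The annotation separates the cytosolic genes by a feature the naming rule did not use. For 5 cytosolic members, GlnRS, ThrRS, LysRS, HisRS and GlyRS, no mitochondrial gene of the same amino acid was among the members. Of these, 4 are annotated with 2 start codons that give a shorter and a longer protein, against 1 of the 13 other cytosolic genes. The longer protein exceeds the shorter by 57 residues for ThrRS, 33 for LysRS, 42 for HisRS and 86 for GlyRS, and GlnRS has a single start. Among mitochondrial genes 1, AspRS-m, also has 2 annotated starts, and its proteins differ by 57 residues. In humans, single genes give both the cytosolic and the mitochondrial enzyme for glycine and for lysine. Counts per gene do not separate such forms, so the falls of ThrRS, LysRS, HisRS and GlyRS, of -0.91, -1.15, -1.17 and -0.85 on the log2 scale, hold for the sum of the forms. Exons of 7 members, AspRS, GluProRS, HisRS, CysRS-m, SerRS-m, ArgRS-m and GluRS-m, overlapped other genes by more than 5% of their bases, so their levels are uncertain to that extent. Without these, 12 of 15 cytosolic genes were lower, 7 of 11 mitochondrial genes were higher and 0 mitochondrial genes were lower (limma), since GluRS-m is among those left out.

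Other genes of translation also differed by compartment. Cytosolic ribosomal protein genes were lower in adult for 81 of 84 tested and higher for 0, and their median log2 fold change was -1.29. Of all genes tested 37.9% were lower and 27.2% higher. The count of 0 ribosomal genes higher was also 0 at an unadjusted p under 0.05 and with limma voom, and 1 with median of ratios scaling. RpS5a and RpL13A, components of the small and the large subunit, had log2 fold changes of -2.16 ± 0.11 and -2.08 ± 0.10 (SE). Cytosolic translation factor genes were lower for 27 of 34 and higher for 2, and their median was -0.63. With median of ratios scaling 21 of them were lower, and with quantile normalization 22. eIF-5A, a factor that helps ribosomes through difficult peptide bonds, had a log2 fold change of -2.81 ± 0.12 (SE), and Ef1gamma, a subunit of the exchange factor for the elongation factor that carries charged tRNA, had one of -1.79 ± 0.11 (SE). Ef1alpha48D, which encodes that carrier, was higher in adult, with 509 ± 51.5 CPM in adult and 397 ± 9.08 CPM in development (limma, adjusted p = 0.00635). Ef1alpha100E, the other gene of that carrier, had the higher CPM and was lower in adult, with 3111 ± 257 CPM in adult and 5120.5 ± 479 CPM in development (limma, adjusted p = 1.78e-05); it was chosen after its values were seen. eIF-1A, an initiation factor, was higher in adult, with a log2 fold change of 0.31 ± 0.10 (SE). RpS5a has a close paralogue, RpS5b, so its level is uncertain where reads of both were counted.

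Mitochondrial ribosomal protein genes were higher for 27 of 72 tested and lower for 11, and their median log2 fold change was 0.21. With median of ratios scaling 38 rose and 5 fell, while of all 6814 genes tested 2231 rose and 2180 fell. Among them mRpS5 and mRpL24 had log2 fold changes of 1.42 ± 0.13 and 1.14 ± 0.12, while mRpL44 and mRpL52 had -1.29 ± 0.14 and -0.84 ± 0.13 (SE). Of 12 mitochondrial translation factor genes tested, GatA and GatB included, 6 rose and 2 fell, with a median of 0.44. ico, the gene of a mitochondrial elongation factor G, had 124 ± 2.97 CPM in adult and 47.8 ± 4.30 CPM in development and a log2 fold change of 1.36 ± 0.13 (SE). CG4447 and CG13163, which are mRRF1 and mIF3 in RefSeq and encode a mitochondrial ribosome recycling factor and an initiation factor, had log2 fold changes of -1.15 ± 0.22 and -0.65 ± 0.20 (SE). The shares that rose, 37.5% of mitochondrial ribosomal genes and 6 of 12 factor genes, stand beside 46.7% of mitochondrial synthetase genes and 27.2% of all genes tested.

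**Figure D4:**
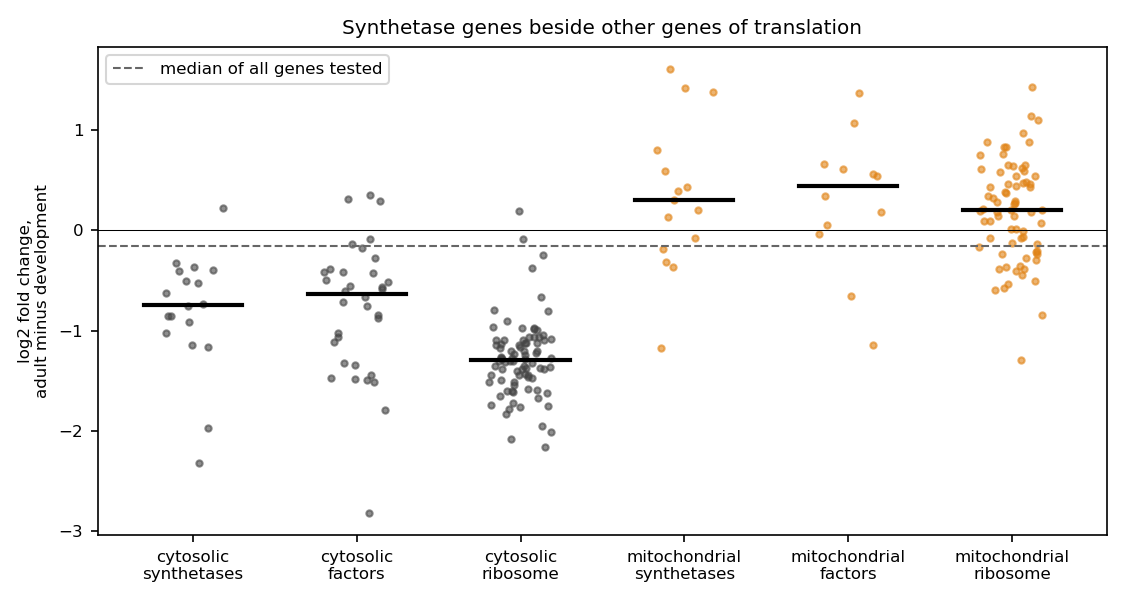
Log2 fold change, adult minus development, of each tested gene in 3 cytosolic (grey) and 3 mitochondrial (orange) groups of translation genes; thick bars are group medians and the dashed line is the median of all 6814 genes tested, at -0.15. The medians of the cytosolic synthetase, factor and ribosomal groups lie at -0.75, -0.63 and -1.29, and those of the mitochondrial groups at 0.31, 0.44 and 0.21.

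Of 12 tested tRNA modification genes 5 fell, a share of 41.7% near the 37.9% of all genes tested. In this list 0 rose (limma), and 0 rose also at an unadjusted p under 0.05 and with limma voom. With median of ratios scaling 3 fell. wuho, a subunit gene of a tRNA methyltransferase, had a log2 fold change of -1.29 ± 0.16 (SE). The list of mitochondrial RNA synthesis and processing genes was mixed, with 3 of 7 higher and 2 lower, beside 27.2% higher and 37.9% lower among all genes tested. In it scu, which encodes a dehydrogenase that is also a subunit of mitochondrial RNase P, had a log2 fold change of -1.33 ± 0.14, and bsf, an RNA-binding protein gene of mitochondria, had one of 1.01 ± 0.13 (SE).

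Synthetase genes are known in mammals as targets of the integrated stress response, in which the kinase Gcn2 senses uncharged tRNA. The list of that response and of amino acid synthesis was mixed, with 7 of 20 genes lower and 6 higher, near the shares of all genes tested, and a median log2 fold change of -0.11 beside -0.15 for all genes; with median of ratios scaling the list's median was 0.036. Thor, the gene of an inhibitor of translation initiation, had 0.427 ± 0.279 CPM in adult and 10.7 ± 2.56 CPM in development, and Hsc70-3, which encodes the chaperone BiP of the endoplasmic reticulum, had 280.1 ± 15.0 CPM in adult and 1419 ± 224 CPM in development. aay, a phosphoserine phosphatase gene of serine synthesis, had 13.7 ± 1.56 CPM in adult and 2.43 ± 0.318 CPM in development (each SD, n = 3). Gs2, a glutamine synthetase gene that is also on the glial marker list, had 333 ± 67.3 CPM in adult and 50.9 ± 9.66 CPM in development. Of 8 tested amino acid transport genes 3 fell and 2 rose, near the 37.9% lower and 27.2% higher of all genes tested. With median of ratios scaling 3 fell and 4 rose. mnd, which encodes an amino acid transporter, had 5.07 ± 3.69 CPM in adult and 49.7 ± 5.42 CPM in development. gb, another transporter gene, had 28.2 ± 6.48 CPM in adult and 149.5 ± 11.4 CPM in development, while Eaat2, of the same kind, had 1483 ± 41.2 CPM in adult and 710.3 ± 92.4 CPM in development. All 7 genes named here passed the test in the direction of their means (limma, adjusted p at most 6.41e-06).

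Markers of other cells moved between the stages in part. The neuronal genes elav and nSyb and the projection neuron factor acj6 were present in both groups, acj6 at 146 ± 6.10 CPM in adult and 169 ± 10.2 CPM in development (SD, n = 3 each). In development replicates 1 to 3 elav had 359, 167 and 167 CPM and nSyb 1734, 1152 and 1010 CPM, so replicate 1 was the highest. acj6 did not show this, with 165, 181 and 162 CPM. In adult elav had 194, 209 and 226 CPM and nSyb 2094, 2201 and 2358 CPM. Of 6 tested neuron and projection neuron markers 3 were higher in adult, nSyb and ChAT among them, 1 was lower and 2 did not pass (limma). ChAT had 569 ± 15.4 CPM in adult and 43.8 ± 8.63 CPM in development. The lower one, vvl, had 17.0 ± 0.722 CPM in adult and 30.7 ± 6.17 CPM in development. Lim1, which was not tested, had 6.51 ± 2.03 CPM in adult and 3.59 ± 0.997 CPM in development (SD, n = 3 each). The summed CPM of 9 markers of dividing cells was 5.58 to 10.6 in adult and 14.3 to 21.3 in development, most of it from PCNA, and ase, wor, mira and dpn, the defining markers of neuroblasts, were each under 1 CPM in every library. Glial markers summed to 474 to 616 CPM in adult and 302 to 341 CPM in development, mostly from Gs2 and nrv2, which moved in opposite directions. Gs2 was higher in adult as given, while nrv2 was lower, with 195 ± 13.4 CPM in adult and 243 ± 12.6 CPM in development, and so was wrapper, with 3.36 ± 2.34 CPM in adult and 7.07 ± 0.680 CPM in development. alrm was higher, with 26.3 ± 6.05 CPM in adult and 8.40 ± 4.33 CPM in development, and the defining marker repo had 1.08 ± 0.266 CPM in adult and 0.851 ± 0.0907 CPM in development (SD, n = 3 each). Markers of muscle summed to 1.31 to 2.80 CPM in adult and 5.33 to 7.47 CPM in development, and those of fat body to 34.2 to 47.5 CPM in adult and 39.9 to 55.8 CPM in development. The fat body sum held members that moved far in opposite directions. The yolk protein genes Yp1 and Yp2 averaged 18.4 and 19.3 CPM in adult and 0.252 and 0.211 CPM in development. Lsp2, Fbp1 and Lsp1alpha averaged 0.0203, 2.05 and 0 CPM in adult and 16.8, 25.5 and 5.09 CPM in development. Photoreceptor markers summed to 12.6 to 18.7 CPM in adult and 0.161 to 1.71 CPM in development, and those of olfactory receptor neurons, mostly Orco, to 23.6 to 37.3 CPM in adult and 2.00 to 3.95 CPM in development. Hemocyte markers summed to 225 to 250.2 CPM in adult and 356 to 491 CPM in development, nearly all of it Pxn, while NimC1 was near 0. The part of other cells in the synthetase values was not tested.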

How the data were processed

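The authors deposited 1 table of log2 values for all 6 libraries, which the values show to be log2(CPM + 1). Per the submitters' processing notes, the tools were STAR 2.4.2a and HTSeq 0.7.1, with no role given for either. Genome build, annotation, strand setting and filters were not given in the sources used here. Of 14139 rows, 1 without a symbol was left out. CPM values were whole multiples of 1 read (100.0% within 0.1 read), which gave the reads per library. Reads carry no molecular identifiers.

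Groups and replicate numbers were taken from library titles. Genes with at least 5 CPM in at least 3 libraries were tested with limma 3.58.1 in R 4.3.3 on log2(CPM + 1), two-sided, by lmFit and trended eBayes, and p-values of all 6814 tested genes were adjusted by Benjamini-Hochberg and called below 0.05. Log2 differences are adult minus development, and the pseudocount of 1 understates those of low genes. The code was tested on simulated data in which few genes changed, equally often up and down. That test does not cover data in which most genes change, as they did here. Pairs were compared with exact permutation tests in SciPy 1.17.1. Coordinates, exon lengths, overlaps and start codons are from BDGP6.54, Ensembl release 115. Members and lists were chosen with earlier results of these data known. All members and companions are named, and of each other list at most 2 rises and 2 falls past the threshold, the largest with groups that do not overlap. Alternatives covered pseudocount, filter, scaling, replicate block, variance model, library weights, limma voom on recovered reads, threshold and each library left out.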

Additional observations from a re-analysis of the deposited data

How the results depend on the processing

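Of the 22 members called, 17 had the same call in each of the 17 alternative fits that tested them, and the exceptions were TrpRS, ValRS, GlnRS, AlaRS-m and PheRS-m. Asking for at least a 2-fold change left 6 of 33 members lower and 3 higher, with 5 cytosolic genes lower and 3 mitochondrial genes higher. With it 2145 of all 6814 genes tested changed in place of 4439, so the share of members that changed was not above that of all genes. At a threshold of 0.01, 4 members were higher, all 4 mitochondrial, and the share of all genes at that threshold is not given here. With median of ratios scaling, quantile normalization or library weights 1 cytosolic gene was higher in place of 0. The median log2 fold change of cytosolic genes was -0.60 with median of ratios scaling and with quantile normalization, in place of -0.75. The log2 ratio of summed CPM, adult over development, was -0.82 for cytosolic genes in place of -0.97 and 0.52 for mitochondrial genes in place of 0.37 with median of ratios scaling. Mitochondrial genes lower in adult numbered 2 in place of 1 with library weights, 1 to 2 when libraries were left out in turn, and 0 without members whose exons overlap another gene. That setting and the count with alpha-PheRS and beta-PheRS were chosen after seeing the data. The log2 fold change of CysRS-m, -0.08, was 0.066 with median of ratios scaling, 0.064 with quantile normalization and between -0.29 and 0.07 overall. That of IleRS-m, 0.13, was -0.018 with library weights and -0.16 without adult replicate 1, and that of GatB, 0.06, was -0.018 without adult replicate 3, at most 0.097 with another library left out (adult replicate 2), and 0.207 with median of ratios scaling. CysRS-m had 0.047 without adult replicate 2 and 0.0093 without adult replicate 3. The causes were not tested.

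Correlations of deviations between libraries with the same replicate number were -0.03, 0.04 and -0.01 for numbers 1 to 3, so the numbers were not taken to pair the libraries. With the replicate number as a block, 16 members were lower in place of 15, 2 mitochondrial genes were lower in place of 1, since AspRS-m passed (limma, adjusted p = 0.0356), and 4428 of all genes changed. Members had at least 142 reads in each library.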
